A study of Arabidopsis thaliana with 210 samples.

Results

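The nuclei described here were the AGO4 positive nuclei of the Arabidopsis shoot apex: 59 of the 138 deeply sequenced Smart-seq2 nuclei, and of 210 wells in all. They were chosen by their own AGO4 (AT2G27040) counts. A nucleus needed at least 50000 counts on nuclear, plastid and mitochondrial genes, at least 5 AGO4 counts and an AGO4 level of at least 10 CPM, where CPM stands for counts scaled to the usual per-million total of counts on genes. By this rule, 23 of 57 deep p1 nuclei and 36 of 81 deep p2 nuclei were positive. They were set against the 76 deep nuclei with fewer than 5 AGO4 counts, called negative here (31 of p1 and 45 of p2). A further 3 p1 nuclei had at least 5 AGO4 counts but stayed under 10 CPM and entered neither group.

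The series addresses how ARGONAUTE proteins act in the shoot apical meristem. These libraries hold nuclear RNA from shoot apices of soil-grown seedlings of the ecotype Col-0 at 7 days after germination. Every well carries the label stem cells, and every nucleus of both groups shares this ecotype, age and label. The table also has a row for mCherry, a red fluorescent reporter; no label names the transgenic line or what drives it. The labels mark each nucleus as p1 or p2 without saying what the mark stands for, and all comparisons were made within p1 and within p2.

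AGO4 is an effector of RNA-directed DNA methylation, the pathway by which plants silence transposable elements. In it, RNA polymerase IV, RDR2 and DCL3 produce small interfering RNAs, AGO4 binds them in the nucleus, and pairing with transcripts of RNA polymerase V brings the methyltransferase DRM2 to the locus. Other enzymes keep methylation up through cell division, MET1 at CG sites, CMT3 at CHG sites and CMT2 at CHH sites, where H is any base but G. Demethylases of the ROS1 and DME family remove it.

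The promoters of AGO4 and of the methyltransferase gene CMT3 and the demethylase gene ROS1 are shown because the RNAs of the latter pair were higher in the positive nuclei of p1 and of p2. Each is the 250 bases before the annotated gene start in the RefSeq annotation of TAIR10.1, written in the direction of transcription. All 3 genes lie on the minus strand, AGO4 with its window at chr2:11542392-11542641, CMT3 at chr1:26253688-26253937 and ROS1 at chr2:15314808-15315057. Capitals mark a match to an E2F-type site, a motif bound by factors that act at the entry into DNA replication.
AGO4: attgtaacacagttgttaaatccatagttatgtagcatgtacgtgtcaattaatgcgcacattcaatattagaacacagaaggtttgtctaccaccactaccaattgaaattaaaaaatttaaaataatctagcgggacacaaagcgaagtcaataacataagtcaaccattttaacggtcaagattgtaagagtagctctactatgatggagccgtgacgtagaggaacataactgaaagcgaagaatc
CMT3: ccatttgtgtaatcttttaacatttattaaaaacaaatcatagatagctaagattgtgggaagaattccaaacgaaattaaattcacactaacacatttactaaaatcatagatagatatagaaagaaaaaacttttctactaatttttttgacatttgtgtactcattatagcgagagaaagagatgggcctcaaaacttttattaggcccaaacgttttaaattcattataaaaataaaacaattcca
ROS1: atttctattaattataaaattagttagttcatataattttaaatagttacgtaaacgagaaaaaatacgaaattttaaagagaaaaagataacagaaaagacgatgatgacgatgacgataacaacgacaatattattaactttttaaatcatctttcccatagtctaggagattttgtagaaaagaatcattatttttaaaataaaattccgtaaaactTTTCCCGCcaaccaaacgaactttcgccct
The motifs searched on both strands were TTTCCCGC, TTTGGCGC, TTTGCCGC and TTTCGCGC. Only the ROS1 window of these 3 held a match, TTTCCCGC, which began 30 bases before the gene start. A match was present in 1.41% of the windows of 27444 protein-coding genes and in 1.68% of those of the genes compared in p1 and p2. These letters are a description of the window and say nothing of binding.

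AGO4 RNA itself spanned a wide range among the positive nuclei. In p1 the lowest positive nucleus had 15 CPM, the median 115 CPM and the highest 781 CPM. In p2 the values were 13.1, 252 and 1428 CPM. The highest nucleus therefore stood 52.1-fold above the lowest in p1 and 109-fold in p2, and 14 of 23 and 23 of 36 nuclei had at least 100 CPM. At the other end, 5 p1 and 12 p2 positive nuclei lay between 10 and 50 CPM. Since AGO4 chose the groups, these levels are a description and carry no test.

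The threshold cut through few nuclei. Just inside it, the lowest p1 nuclei had 9, 102 and 39 AGO4 counts at 15, 17.9 and 19.5 CPM, and the lowest p2 nuclei had 10, 11 and 7 counts at 13.1, 14.7 and 17.9 CPM. Just outside it, the 3 intermediate p1 nuclei had 5, 6 and 14 counts at 2.67, 3.24 and 6.33 CPM. The highest negative p2 nucleus reached 10.9 CPM from 4 counts. Of the negative nuclei, 15 of 31 in p1 and 28 of 45 in p2 had no AGO4 count, and the others had 1 to 4. A count of 0 in a nucleus does not show that the gene was silent there. Among the 48 shallow nuclei left out, 1 p1 nucleus had 5 AGO4 counts.

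The bulk wells gave AGO4 values inside the range of the positive nuclei. The bulk well of p1 had 134 CPM of AGO4 (95% interval 118 to 151) and that of p2 had 161 CPM (140 to 185). The labels say that a bulk well received 50 nuclei, while the prefix of its column holds the number 10. In a bulk well, fewer nuclei with the RNA and less RNA per nucleus cannot be told apart. Both negative control wells had 0 AGO4 counts among 7953 and 8676 counts on genes, which allows up to 377 and 346 CPM.

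**Figure D1:**
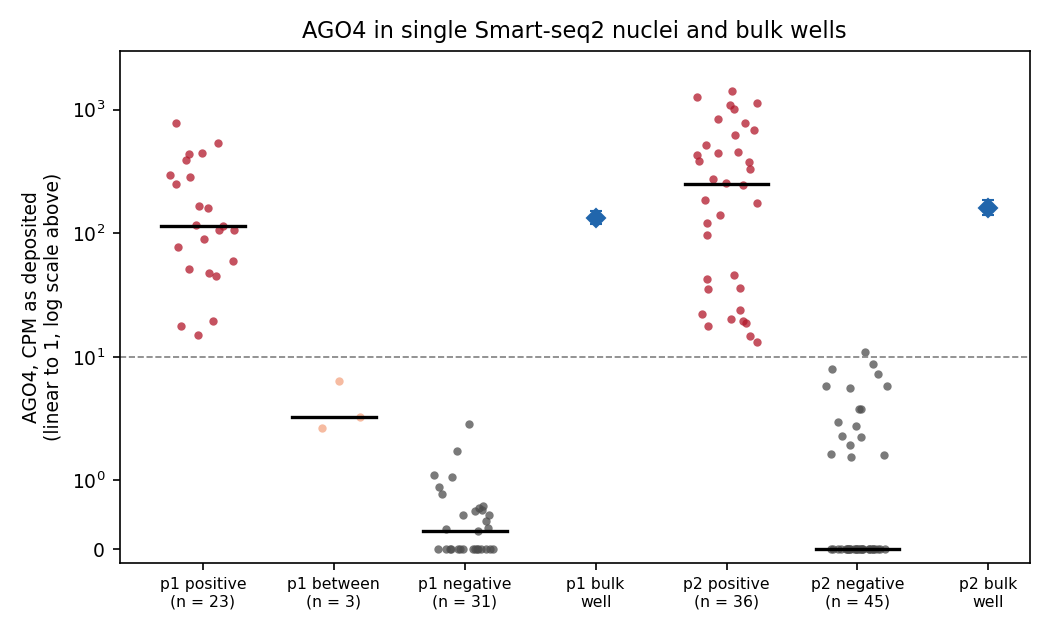
AGO4 level of each deep Smart-seq2 nucleus in CPM as deposited (vertical axis, linear to 1 and logarithmic above), by p and group, with the bulk wells as diamonds with exact 95% Poisson intervals. Points are nuclei, black bars are medians, and the dashed line marks 10 CPM. Positive nuclei run from 15 to 781 CPM in p1 and from 13.1 to 1428 CPM in p2, and the bulk wells lie within that range.

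As libraries, the positive nuclei overlapped the negative ones, with a higher median gene number that in p1 depended on the thresholds. At 50000 counts per nucleus, the positive nuclei held 1600 to 5592 genes with a median of 3350 in p1, against 1021 to 5004 and 3113 in the negative nuclei. In p2 they held 916 to 5379 genes with a median of 2413.5, against 915 to 5175 and 2051. The groups overlapped almost fully. Depth as deposited had medians of 2233280 and 1918820 counts in p1 and of 446172 and 375146 in p2. Plastid and mitochondrial genes, a sign of RNA from outside the nucleus, took a median of 14.5% of counts in positive and 14.8% in negative p1 nuclei, and 18.5% and 19.8% in p2. The highest share in any positive nucleus was 46.1%, in p2. With no CPM minimum for positive nuclei the p1 medians were 3116 and 3113 genes, and with negative nuclei at 0 AGO4 counts 3350 and 3319.

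**Figure D2:**
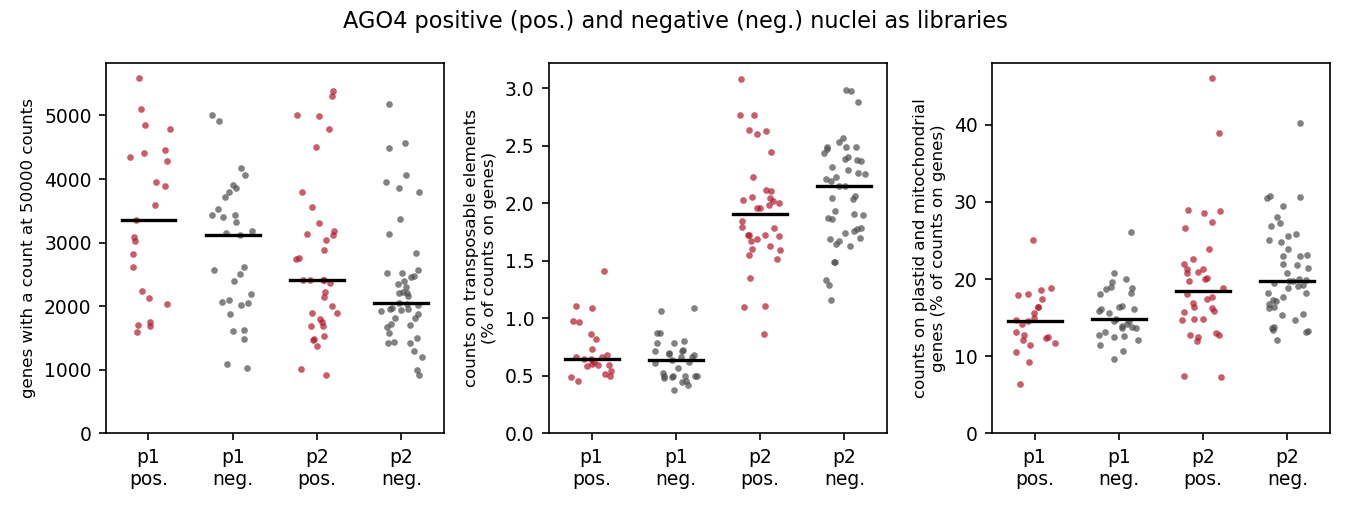
Genes with a count at 50000 counts per nucleus, counts on transposable elements and counts on plastid and mitochondrial genes (both as % of counts on genes) for AGO4 positive (red) and negative (grey) nuclei of p1 and p2. Points are nuclei and black bars medians. The groups overlap in all 3 measures, and the median gene number is higher in the positive nuclei, 3350 against 3113 in p1 and 2413.5 against 2051 in p2.

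Low counts were shared between some wells. This was read from 709 genes whose p1 counts lay almost wholly, to 90% or more, in 1 well. Wells numbered within that well's block of 8, or with an equal remainder on division by 8, held a count of the gene in 22.2% of cases. Other wells did so in 3.30%. Past the thresholds used for AGO4, the shares were 1.40% and 1.21%. For the 43 such genes of p2 they were 0.741% and 1.19%. No pair of wells within a group held identical values.

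All other genes were compared after each nucleus had been thinned at random to 50000 counts on genes. The level of a gene is its summed thinned count in CPM of the group, and its difference is the log2 ratio of positive over negative nuclei with an exact binomial 95% interval. The labels do not say which plants or pools the nuclei came from, so each group counts as 1 sample, no test was possible and no p-value is given. The intervals cover counting error only. Reads had no molecular identifiers, and often 1 nucleus held much of a gene's count, so the spread between nuclei is far larger. A gene was called when it was at least 2-fold apart. In p1, 21.4% of 9572 genes compared were called higher and 19.5% lower, and in p2, 19% of 8350 genes were called higher and 16.8% lower. These shares are the background for every count that follows.

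The calls of p1 and p2, which share no nuclei, mostly did not match. Of 6884 genes compared in both, 252 were called higher in both and 218 lower in both, while 464 were called in opposite directions. Pearson's r of the log2 ratios across genes was 0.01, a description over genes that share libraries. A stricter rule also asked that the share of nuclei with a count at 50000 counts per nucleus differ by at least 10 percentage points in the same direction in p1 and p2. It kept 90 higher genes (1.31%) and 19 lower genes (0.276%), and 69 genes passed it in opposite directions. Of the same 6884 genes, 803 passed as higher and 368 as lower in p1 taken alone, and 691 and 243 in p2. Whether 90 and 19 exceed what unrelated lists of these sizes would share was not tested. The excess of higher genes was lost when only nuclei with 1500 to 4000 genes were compared, a setting chosen after seeing the data, which gave 80 higher and 109 lower genes. Of all genes compared, 65.6% in p1 and 63.5% in p2 were found in a larger share of positive than of negative nuclei.

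**Figure D3:**
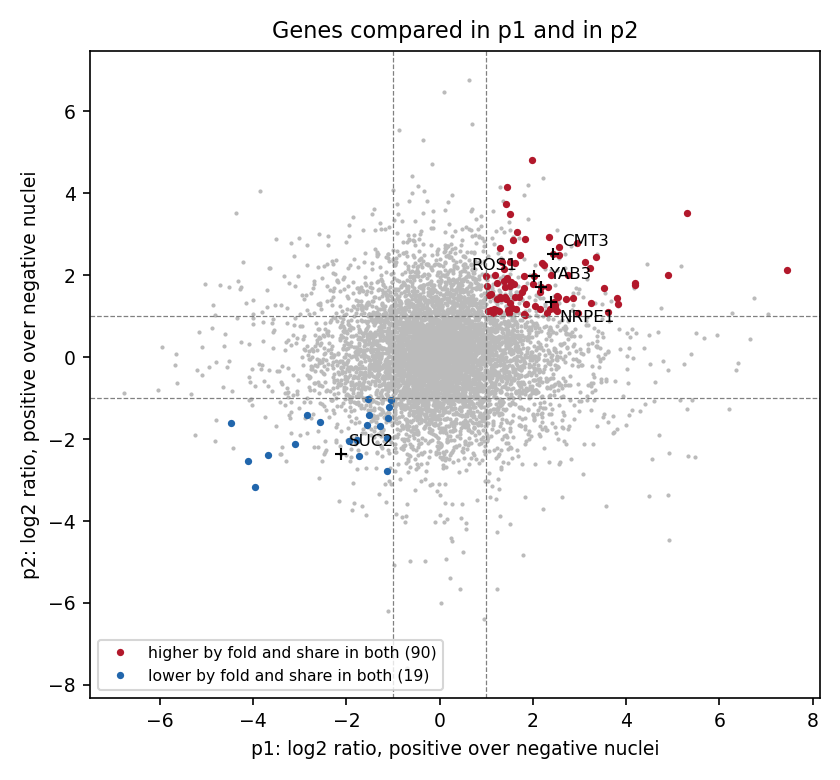
Log2 ratio of positive over negative nuclei in p1 (horizontal) and p2 (vertical) for genes compared in both, AGO4 left out. Each point is a gene, dashed lines mark 2-fold, and red and blue points are the 90 higher and 19 lower genes that passed by fold and share in p1 and p2. The cloud shows no slope, and CMT3, ROS1, YAB3 and NRPE1 lie in the upper right and SUC2 in the lower left.

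Within the ARGONAUTE family, AGO4 was the most abundant member by CPM in 10 of 23 positive p1 nuclei and 21 of 36 positive p2 nuclei. AGO1, the main effector of microRNAs, led in 7 and 4 nuclei, AGO9, a close relative of AGO4, in 4 and 4, and AGO10, which binds microRNA166 in the meristem, in 2 and 4. Since AGO4 chose these nuclei and no other member had to pass a threshold, the ranking favours AGO4 by the rule and carries no test. Only in 6 p1 and 8 p2 nuclei was AGO4 the sole family member with at least 5 counts. By this threshold, which sets no CPM minimum, most positive nuclei held RNA of further ARGONAUTE genes. From 5 counts, AGO1 was found in 52.2% of positive and 48.4% of negative p1 nuclei, and in 25% and 28.9% in p2. For AGO9 the shares were 30.4% and 25.8% in p1, and 25% and 20% in p2. For AGO10 they were 34.8% and 16.1% in p1, and 47.2% and 26.7% in p2.

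AGO10 (AT5G43810) was higher in positive nuclei of p1, at 124 CPM (105 to 146) against 14.2 CPM (8.90 to 21.5), a log2 ratio of 3.13 (2.48 to 3.85). As deposited, its CPM ran from 0 through a median of 0.175 to 2117 in positive p1 nuclei and from 0 through 0 to 450 in negative ones. In p2 its log2 ratio was 0.79 (0.38 to 1.2), under 2-fold. It had a count in 26.1% of positive and 6.45% of negative p1 nuclei, and in 41.7% and 22.2% in p2. A single nucleus held 69.9% of the counts of the positive p1 group.

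The other family members did not pass 2-fold where they could be compared. AGO1 (AT1G48410) had log2 ratios of 0.98 (0.64 to 1.33) and 0.45 (0.09 to 0.81), and AGO9 (AT5G21150) of 0.00 (-0.31 to 0.30) and 0.08 (-0.25 to 0.41). AGO9 had a count in 30.4% of positive and 22.6% of negative p1 nuclei, and in 19.4% and 20% in p2. AGO7 (AT1G69440), which acts in the trans-acting siRNA pathway, could be compared in p2 alone, with a log2 ratio of -0.13. AGO6 (AT2G32940), which also loads siRNAs of the methylation pathway, was too rare to compare. At 50000 counts it was found in 1 of 23 positive and 0 of 31 negative p1 nuclei, and in 1 of 36 positive and 6 of 45 negative p2 nuclei. AGO2, AGO3, AGO5 and AGO8 each had a count in at most 3 nuclei of any group.

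Genes of DNA methylation maintenance held the clearest case, CMT3 (AT1G69770), which keeps up CHG methylation. In p1, CMT3 ran from 0 through a median of 1.66 to 692 CPM in positive nuclei, and from 0 through 0 to 528 CPM in negative nuclei. In p2 the medians were 0 in both groups and the highest nuclei were at 923 and 267 CPM. The groups overlapped, since many nuclei of each had no count. At 50000 counts, CMT3 was found in 12 of 23 positive p1 nuclei (52.2%, 30.6 to 73.2) against 3 of 31 negative ones (9.68%, 2.04 to 25.8), and in 7 of 36 (19.4%, 8.19 to 36) against 4 of 45 (8.89%, 2.48 to 21.2) in p2. The log2 ratio was 2.44 (1.90 to 3.02) in p1 and 2.51 (1.86 to 3.21) in p2. Over the settings tried it lay between 2.17 and 4.94 in p1 and between 2.01 and 4.26 in p2. The bulk wells had 79.7 CPM in p1 and 48.7 CPM in p2.

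The rest of this list was mixed. Of its 12 members, 7 could be compared in each p, 2 were called higher in p1 and none lower, and 2 were called higher and 1 lower in p2. Median log2 ratios were 0.67 and -0.26, against 0.03 and 0.04 for all genes compared. SUVH4 (AT5G13960), the histone H3 lysine 9 methyltransferase that works with CMT3, was called higher in p2, at 118 against 34.2 CPM (log2 ratio 1.79, 1.41 to 2.19), and had 0.67 (0.10 to 1.24) in p1. MOM1 (AT1G08060), a silencing factor that acts without large changes in methylation, was called higher in p1 at 1.29 (0.80 to 1.80), and had -0.20 in p2. VIM1 (AT1G57820), a cofactor of MET1, was called lower in p2 at -1.37 (-1.88 to -0.87) and had -0.40 in p1. MET1 (AT5G49160) and CMT2 (AT4G19020) were within 2-fold in both, at 0.32 and -0.26 and at -0.40 and -0.48. DDM1 (AT5G66750), the chromatin remodeller needed for methylation of heterochromatin, had 0.81 in p1 and -0.81 in p2.

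DNA demethylation was led by ROS1 (AT2G36490), a glycosylase that removes methylated cytosine and whose own transcription is known to depend on methylation of its promoter by the AGO4 pathway. ROS1 ran from 0 through a median of 0.225 to 923 CPM in positive p1 nuclei, and from 0 through 0.203 to 254 CPM in negative ones. In p2 the medians were 0 and the highest nuclei at 2916 and 485 CPM. It was found in 43.5% (23.2 to 65.5) of positive and 22.6% (9.59 to 41.1) of negative p1 nuclei, and in 38.9% (23.1 to 56.5) and 17.8% (8.00 to 32.1) in p2. The log2 ratios were 2.03 (1.52 to 2.55) and 1.97 (1.65 to 2.30). A single nucleus held 41.4% of the positive counts in p1 and 44.4% in p2, and without the highest nucleus of each group the log2 ratios were 1.83 and 1.49.

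Of the 5 demethylation genes, 4 were compared in each p, with 2 called higher in p1, 1 in p2 and none lower. DML2 (AT3G10010), a paralogue of ROS1, was called higher in p1 at 1.56 (1.06 to 2.08) and had 0.76 (0.37 to 1.15) in p2. DME (AT5G04560), known for demethylation in the central cell of the ovule, had 0.40 and -0.41. IDM1 (AT3G14980), a histone acetyltransferase that helps recruit ROS1, had 0.27 and -0.25, though a count of it was found in 39.1% of positive and 12.9% of negative p1 nuclei. In p1, 4 of these genes, and in p2 all 5, were found in a larger share of positive than of negative nuclei, beside 65.6% and 63.5% of all genes compared. These percentages cover compared genes alone, while the 5 include a member that was not compared.

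Among genes of RNA polymerase V and de novo methylation, NRPE1 (AT2G40030), the largest subunit of the polymerase whose transcripts AGO4 binds, was called higher in p1 and p2. It was at 109 CPM (90.5 to 130) against 20.6 CPM (14.1 to 29.1) in p1 and at 108 CPM (93.1 to 124) against 42.2 CPM (34.2 to 51.6) in p2, log2 ratios of 2.40 (1.83 to 3) and 1.35 (0.99 to 1.72). It was found in 7 of 23 positive and 4 of 31 negative p1 nuclei and in 7 of 36 and 5 of 45 p2 nuclei, so few nuclei carry the ratio. As deposited, without thinning, it had a count in 22.2% of positive and 22.2% of negative p2 nuclei. A single nucleus held 55.2% and 54.1% of the positive counts. With positive nuclei from 50 CPM of AGO4 the p2 ratio was 0.47.

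Of the 14 members of this list, 6 in p1 and 7 in p2 were compared, with 1 called higher in p1, 3 in p2 and none lower. Median log2 ratios were 0.05 and 0.57. MORC1 (AT4G36290), an ATPase needed for silencing, was called higher in p2 at 2.87 (1.97 to 3.89). In p1 it was found in 4 of 23 positive and 0 of 31 negative nuclei, too few to compare. NRPE5 (AT3G57080), a small subunit of RNA polymerase V, was called higher in p2 at 1.95 (1.22 to 2.74) and had 0.56 in p1. KTF1 (AT5G04290), which binds AGO4 and nascent RNA, was among the more widely found members, in 39.1% of positive and 32.3% of negative p1 nuclei and 47.2% and 26.7% in p2, with log2 ratios of -0.99 and 0.57. IDN2 (AT3G48670), an RNA-binding partner in the pathway, had -0.22 and -0.82. DRM2 (AT5G14620), the methyltransferase at the end of the pathway, was found in 1 of 23 and 2 of 31 p1 nuclei and in 2 of 36 and 5 of 45 p2 nuclei, and DRM1 in none.

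Genes that make the siRNAs showed no common direction across p1 and p2. Of 10 members, 3 in p1 and 4 in p2 were compared, with 0 called higher and 1 lower in p1, and 2 higher and 1 lower in p2. Median log2 ratios were -0.31 and 1.04. A larger share of positive than of negative nuclei had a count for 6 of the 10 in p1 and 8 in p2. Of all genes compared, 65.6% and 63.5% went that way, though the 10 include members that were not compared. SHH1 (AT1G15215), which reads histone marks to recruit RNA polymerase IV, had -4.72 (-6.18 to -3.57) in p1 and 1.76 (0.85 to 2.76) in p2, with 62.9% of the negative p1 counts in a single nucleus. HEN1 (AT4G20910), which methylates small RNAs, was called lower in p2 at -4.98 (-8.05 to -3.08), in 1 of 36 positive and 8 of 45 negative nuclei, and had -0.31 in p1. NRPD2 (AT3G23780), the subunit shared by RNA polymerases IV and V, was called higher in p2 at 1.17 (0.79 to 1.55) and had 0.58 in p1. NRPD1 (AT1G63020), the largest subunit of RNA polymerase IV, had 0.91 in p2. CLSY4 (AT3G24340), a chromatin remodeller that directs that polymerase, was found in 6 of 36 positive and 1 of 45 negative p2 nuclei, under the filter for a comparison. DCL3 and RDR2 each had a count in at most 3 nuclei of any group.

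The microRNA and trans-acting siRNA genes likewise had no common direction. Of 8 members, 6 in p1 and 5 in p2 were compared, with 2 called higher and 2 lower in p1, and 0 higher and 1 lower in p2. RDR6 (AT3G49500), the polymerase of the trans-acting siRNA pathway, was called higher in p1 at 3.47 (2.51 to 4.58), at 71.3 against 6.45 CPM, and had -0.54 (-0.87 to -0.22) in p2. DCL4 (AT5G20320), which dices its product, was called higher in p1 at 1.52 and lower in p2 at -1.17. SE (AT2G27100), a cofactor of DCL1, was called lower in p1 at -1.2 (-1.68 to -0.74) and had 0.82 in p2. DCL1 (AT1G01040), the microRNA dicer, was within 2-fold in both, at -0.03 and -0.19.

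**Figure D4:**
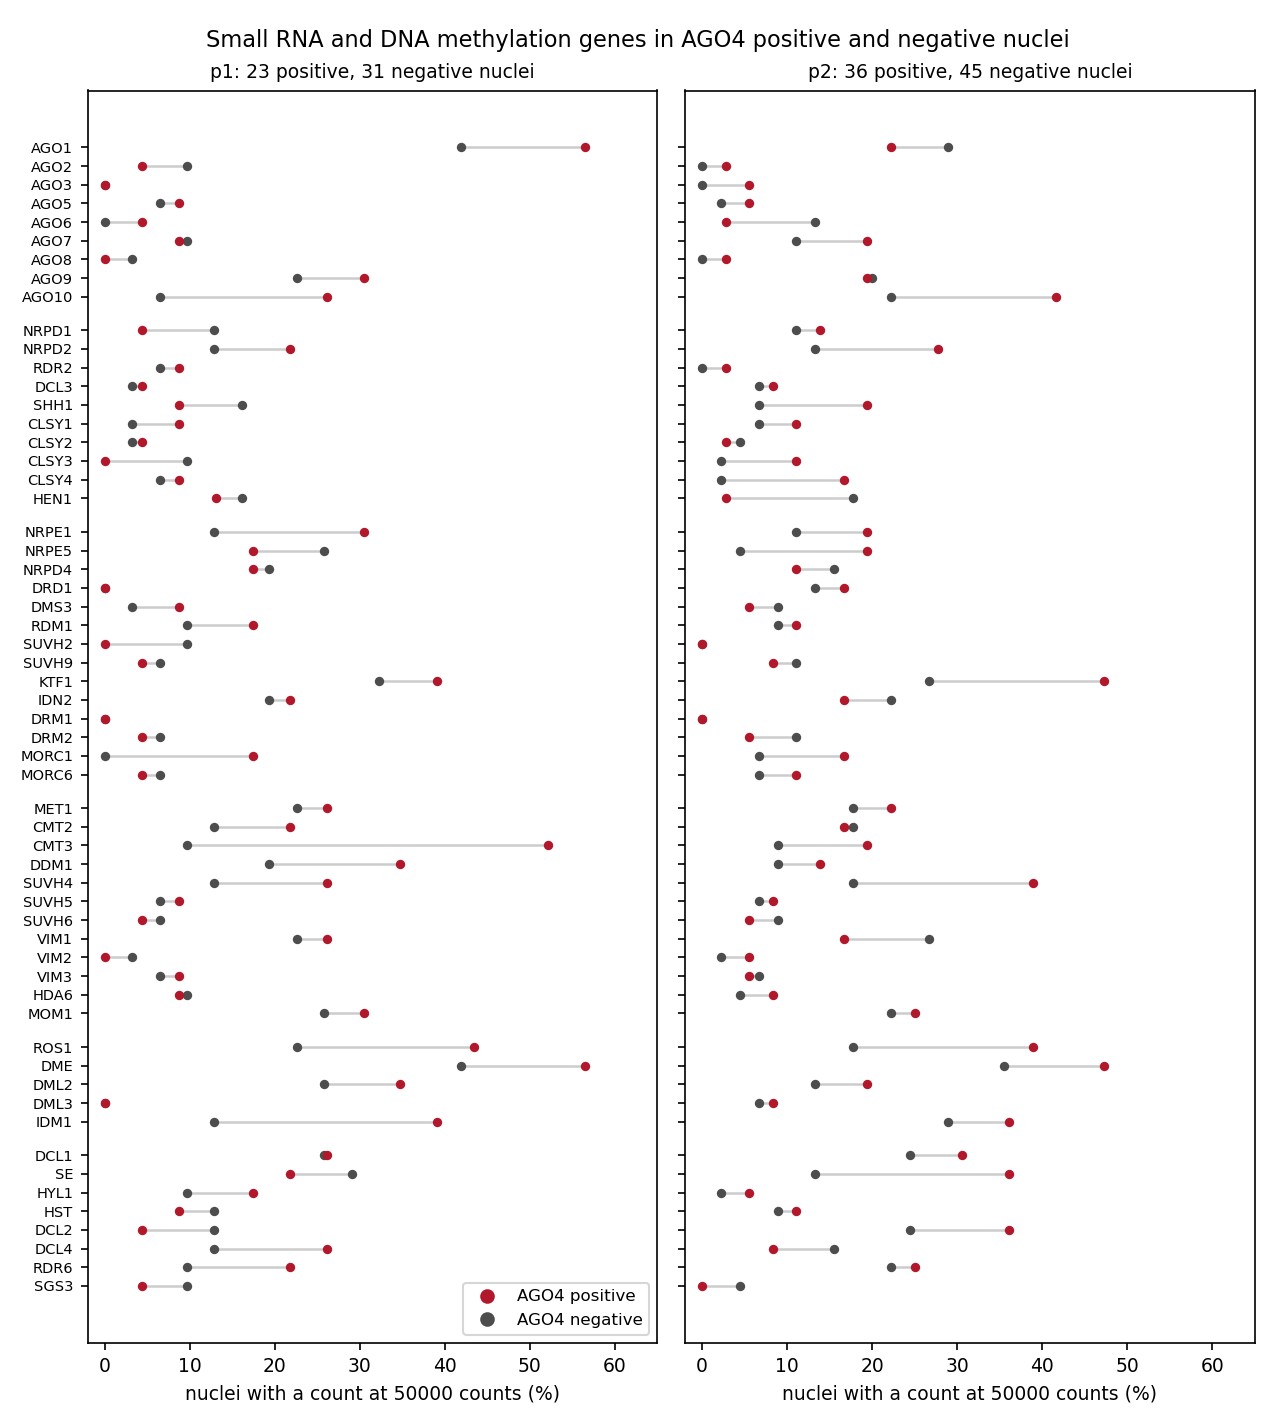
Share of nuclei with a count at 50000 counts (%) for the genes of the 6 small RNA and DNA methylation lists, in p1 (left) and p2 (right). Red points are AGO4 positive nuclei, grey points AGO4 negative nuclei, and lines join the pair of each gene. CMT3 has the widest gap in p1, 52.2% against 9.68%, and ROS1 stands higher in the positive nuclei in p1 and in p2.

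Genes outside the lists were named by rank among those passing by fold and share in p1 and p2, 15 in each direction. The first was AT3G05470, a formin-like actin-binding protein gene. It ran from 0 through a median of 68.3 to 1067 CPM in positive p1 nuclei and from 0 through 0 to 114 CPM in negative ones, and was found in 52.2% against 12.9% of nuclei. In p2 its highest nuclei were at 611 and 212 CPM and the shares 22.2% and 6.67%. The log2 ratios were 5.30 (4.30 to 6.53) and 3.51 (2.46 to 4.78), and the smallest of any setting was 2.19.

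HMG1 (AT1G76490), the reductase at the start of isoprenoid synthesis, which is also known for a part in microRNA action, was found in 43.5% of positive and 22.6% of negative p1 nuclei and in 44.4% and 11.1% in p2. Its log2 ratios were 3.13 (2.46 to 3.86) and 2.32 (1.89 to 2.77). PLL1 (AT2G35350), a phosphatase that acts redundantly with POLTERGEIST in meristem signalling below CLAVATA, was found in 26.1% against 3.23% in p1 and 19.4% against 6.67% in p2. Its log2 ratios were 7.44 (4.94 to 12.76), from 1 negative count, and 2.13 (1.35 to 2.97). PK1B (AT2G28930), a protein kinase, was found in 44.4% of positive and 13.3% of negative p2 nuclei, with log2 ratios of 2.95 and 2.78. With negative nuclei at 0 AGO4 counts its p1 value dropped to 0.20.

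The other 10 genes of the upper rank beside CMT3 belong to many processes. They are AT3G60860, a SEC7-like exchange factor of vesicle traffic (log2 ratios 2.56 and 2.69), XPO1B, a nuclear export receptor (2.56 and 2.50), BRS1, a carboxypeptidase of brassinosteroid signalling (3.36 and 2.45), and LEW3, a mannosyltransferase (2.34 and 2.93). ABF4, a transcription factor of abscisic acid responses, had 2.24 and 2.25, and TOM5, a mitochondrial import protein, 2.20 and 2.28. IQD23 had 3.21 and 2.16, and ELO1, an Elongator subunit, 2.38 and 2.00. NPQ1, the violaxanthin de-epoxidase of the xanthophyll cycle, had at least 4.89 in p1, where no negative nucleus had a count, and 2.00 in p2, and AT1G01630, a Sec14-like protein gene, 2.75 and 2.00. Of the 15 genes, 13 stayed past 2-fold in p1 and p2 in all settings tried, PK1B and XPO1B being the exceptions.

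Among the lower genes, AT3G16850, a pectin lyase-like gene, was at 4.35 CPM (1.41 to 10.1) against 75.5 CPM (62.4 to 90.5) in p1 and at 11.7 CPM (7.22 to 17.8) against 68 CPM (57.7 to 79.7) in p2. It was found in 13% of positive and 25.8% of negative p1 nuclei and in 13.9% and 28.9% in p2, log2 ratios of -4.12 (-5.77 to -2.85) and -2.54 (-3.28 to -1.88). SOS1 (AT2G01980), the plasma membrane sodium/proton antiporter of salt tolerance, had log2 ratios of -3.09 (-4.59 to -1.90) and -2.12 (-2.99 to -1.34), with shares of 8.70% against 22.6% and 11.1% against 22.2%. AT1G62130, an AAA-type ATPase gene, had -3.96 and -3.17.

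The remaining lower genes had ratios from -4.48 (AT4G07990 in p1) to -1.12 (EDR2 and AT2G42240 in p1). They include SDIR1, a ubiquitin ligase of abscisic acid signalling (-1.77 and -2.03), ACBP4, an acyl-CoA binding protein (-2.57 and -1.59), TTL1, a co-chaperone of osmotic stress tolerance (-1.27 and -1.68), and EDR2, which takes part in disease resistance (-1.12 and -1.96). AT1G16270, a kinase gene, had -1.55 and -1.65, AT2G31390, a sugar kinase gene, -1.52 and -1.42, AT4G27350 at most -3.68 with no positive p1 count and -2.38, AT1G10657 -1.95 and -2.04, AT4G12840 -1.72 and -2.42, AT1G05070 -2.84 and -1.40, and AT2G42240, an RNA-binding protein gene, -1.12 and -2.79. Of the 15, only 6 stayed past 2-fold in p1 and p2 in all settings.

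Cell identity markers were read beside these differences, since the label stem cells does not separate the groups. CLV3, the stem cell peptide, was found in 17.4% of positive and 22.6% of negative p1 nuclei and in 8.33% and 4.44% in p2, so most nuclei of either group had no CLV3 count. In p1, its summed level was nevertheless called higher at 2.40, with 54.9% of the positive counts in a single nucleus. The mCherry reporter had a log2 ratio of -0.43 in p1 and was found in 3 positive and 2 negative p2 nuclei. Of the 5 meristem genes, 4 were compared in each p, with 1 called higher and 1 lower in p1 and none called in p2. STM, which keeps meristem cells undifferentiated, had 1.04 in p1, with a lowest value of 0.86 over the settings, and 0.32 in p2. KNAT2, a related homeobox gene, was called lower in p1 at -1.89 (-2.66 to -1.19), past 2-fold in all settings, and had 0.91 in p2. KNAT1 had 0.31 and 0.40, and KNAT6 -0.35 and -0.02. The summed meristem list ran from 0.451 through a median of 226 to 1617 CPM in positive and from 0 through 290 to 1545 CPM in negative p1 nuclei, and in p2 from 0 through 352 to 4537 and from 0 through 379 to 2532 CPM. By this summed level the groups overlapped.

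The organ primordium list held YAB3 (AT4G00180), a regulator of the lower side of young organs, which was called higher in p1 and p2. It ran from 0 through 3.64 to 1087 CPM in positive and from 0 through 0.203 to 306 CPM in negative p1 nuclei. It was found in 47.8% (26.8 to 69.4) against 19.4% (7.45 to 37.5) of nuclei in p1 and 30.6% (16.3 to 48.1) against 13.3% (5.05 to 26.8) in p2, log2 ratios of 2.17 (1.73 to 2.63) and 1.71 (1.19 to 2.26). Its paralogue FIL had 1.02 (0.19 to 1.86) and -1.37 (-1.94 to -0.84), and ANT and AS1 were within 2-fold, at 0.26 and 0.60 and at -0.02 and -0.31. The summed primordium level had medians of 316 and 197 CPM in p1, with ranges of 0.293 to 2511 and 0.303 to 1177, and of 273 and 32.8 CPM in p2, with ranges of 0 to 1394 and 0 to 2589. All 4 markers had counts in every group. The part of primordium identity in the differences above was not tested.

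SUC2 (AT1G22710), the sucrose transporter of phloem companion cells, was called lower in p1 and p2. It was at 26.1 CPM (17.6 to 37.2) against 114 CPM (97.4 to 132) in p1 and 26.7 CPM (19.7 to 35.4) against 137 CPM (122 to 154) in p2, log2 ratios of -2.12 (-2.73 to -1.56) and -2.36 (-2.83 to -1.92). The shares of nuclei were closer, 13% against 22.6% and 16.7% against 20%, and a single negative p2 nucleus held 67% of the group's counts. The other vascular markers gave ATHB8 at 0.77 in p1 and no further comparison. The summed vasculature level had medians of 0.545 and 1.19 CPM in p1, up to 558 and 829, and of 0 and 0 in p2, up to 585 and 3945. APL had a thinned count in 1 positive and 1 negative nucleus of p1 and in none of p2.

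Of the 5 epidermal genes, 4 in p1 and 5 in p2 were compared, with 1 called lower in p1 and none called in p2. PDF1, an epidermal layer gene, had log2 ratios of 0.49 and -0.12, FDH 0.48 and 0.61, and PDF2 -0.09 and 0.20. ATML1 was called lower in p1 at -1.01, with a highest value of -0.25 over the settings, and had 0.44 in p2. ACR4 was compared in p2 alone, where it was within 2-fold. All 5 mesophyll genes were within 2-fold in both, with RBCS1A at -0.06 and -0.33. Their summed level was high throughout, from 2910 through a median of 20373 to 39332 CPM in positive and from 9942 through 22160 to 37515 CPM in negative p1 nuclei, and with medians of 11747 and 13054 CPM in p2, within 2023 to 37286 and 3879 to 92016. Of the organ boundary genes, CUC1 alone could be compared, at 0.25 in p2, and of the stomatal genes SPCH, at 3.93 in p1, from 4 positive and 3 negative nuclei. CUC2 had a count in 5 of 36 positive and 0 of 45 negative p2 nuclei.

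DNA replication genes had more calls higher than lower in p2, and nearly as many of each in p1. Of 12 members, 8 in p1 and 10 in p2 were compared, with 3 called higher and 2 lower in p1, and 4 higher and 0 lower in p2, and median log2 ratios were 0.63 and 0.93. A larger share of positive than of negative nuclei had a count for 8 of the 12 in p1, where 65.6% of all genes compared went that way, and for 11 of the 12 in p2, against 63.5%. The 12 include members that were not compared, while the percentages cover compared genes alone. The helicase subunits MCM4 and MCM7 had 2.32 (1.76 to 2.91) and 0.93, and 1.12 (0.63 to 1.62) and 0.93, while MCM5 and MCM6 had 0.29 and 2.38 (1.96 to 2.82), and 0.60 and 2.05 (1.58 to 2.54). MCM3 had 1.2 in p1 and -0.79 in p2. Over the settings the p1 value of MCM3 dropped to -0.36 and that of MCM7 to 0.63. The sliding clamp gene PCNA1 had -1.12 and 2.42, and CDT1A, a licensing factor, 3.25 (2.29 to 4.37) in p2. No member was called in the same direction in p1 and p2. The summed level had medians of 336 and 250 CPM in p1, within 0 to 3173 and 0.529 to 1488, and of 136 and 9.02 CPM in p2, within 0 to 2304 and 0 to 1705. The part of replication in the CMT3 difference was not tested.

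Genes of division were mixed. The mitotic cyclin CYCB1;1 was called lower in both, at -1.47 (-2.14 to -0.85) and -1.03 (-1.63 to -0.46), but without the highest nucleus of each group its p2 value was 1.33, and with counts as deposited its p1 value was 0.17. With negative nuclei at 0 AGO4 counts the p1 value was 4.14. Of the 8 genes of the list, 7 in p1 and 5 in p2 were compared, with 1 called higher and 1 lower in p1, and 1 higher and 2 lower in p2. The mitotic kinase gene CDKB2;2 was called higher in p1 at 4.02 (2.71 to 5.69), in 5 of 23 positive and 3 of 31 negative nuclei, past 2-fold in all settings. It was in too few p2 nuclei to compare. CDKB2;1 had 0.69 and 1.43, and CYCB1;2 -0.74 and -1.52. The 5 replicative histone H3 genes were all compared, with 1 called lower in p1, and 1 higher and 1 lower in p2. HTR13 had -1.44 and 1.10, and HTR2 was called lower in p2, though its sign turned with negative nuclei at 0 AGO4 counts. HTR1 was found in 78.3% of positive and 54.8% of negative p1 nuclei and in 44.4% and 28.9% in p2, while its log2 ratios were -0.22 and -0.39. The summed level of the 5 had medians of 379 and 647 CPM in p1 and of 277 and 0 CPM in p2. Of the 6 housekeeping genes, only TIP41 in p1, at -1.08, passed 2-fold.

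**Figure D5:**
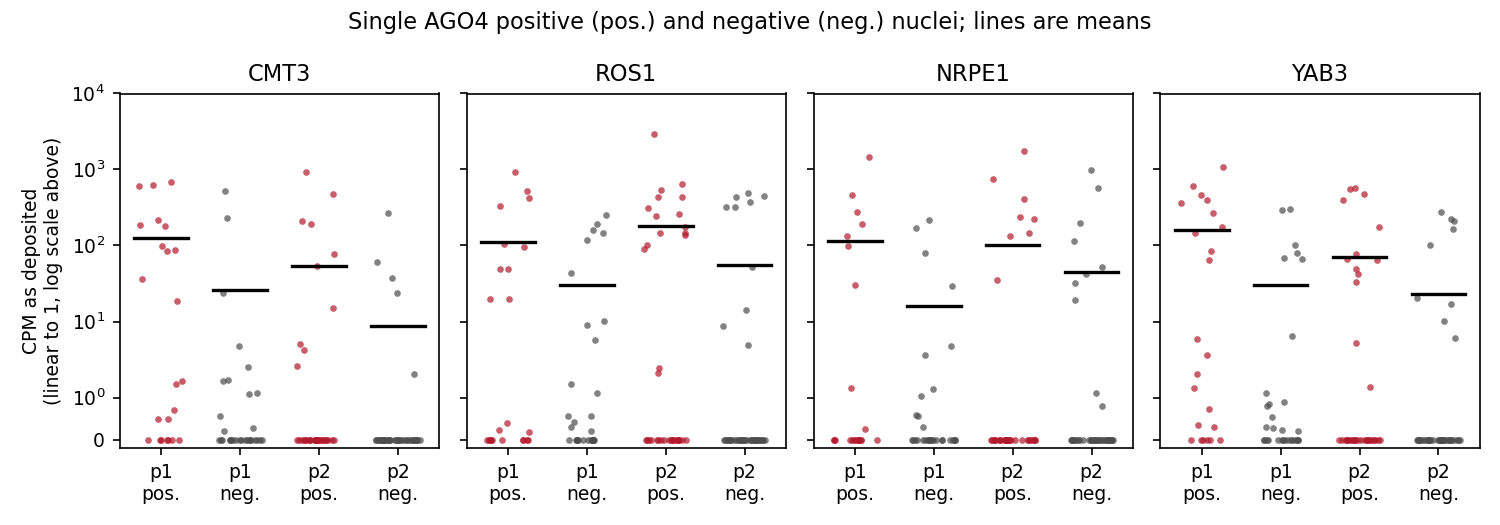
CPM as deposited of CMT3, ROS1, NRPE1 and YAB3 in each AGO4 positive (red) and negative (grey) nucleus of p1 and p2, on an axis that is linear to 1 and logarithmic above. Points are nuclei and black bars are means. Both groups hold nuclei at 0 for each gene, and as deposited CMT3 has a count in 69.6% of positive and 38.7% of negative p1 nuclei, while NRPE1 in p2 has one in 22.2% of each group.

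Transposable elements, the targets of the AGO4 pathway, took an overlapping share of counts in both groups, with a lower median in the positive nuclei of p2. Relative to counts on genes, the median was 0.647% in positive and 0.634% in negative p1 nuclei, with ranges of 0.455 to 1.41% and 0.377 to 1.08%. In p2 it was 1.90% and 2.15%, with ranges of 0.863 to 3.08% and 1.16 to 2.98%. At equal depth, a median of 80 and 72 elements had a count in p1 and 162.5 and 156 in p2. By both measures the ranges overlapped. The quartiles of the p2 share were 1.66 and 2.10% in positive and 1.76 and 2.38% in negative nuclei. With positive nuclei from 50 CPM of AGO4 the p2 medians were 1.79% and 2.15%, and with negative nuclei at 0 AGO4 counts 1.90% and 2.23%. This p2 difference was not tested.

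Of 105 elements compared in p1, 15.2% were called higher and 14.3% lower, and of 212 in p2, 11.3% were called higher and 14.2% lower, shares below those of genes. Of 82 elements compared in both, 4 were called in the same direction and 2 in opposite ones, and none passed by fold and share in p1 and p2. AT4TE74230 was called higher in both, at 1.28 (0.09 to 2.56) and 4.75 (2.81 to 7.84), and was found in 12 of 36 positive and 2 of 45 negative p2 nuclei, and in 4 of 23 and 4 of 31 in p1. AT4TE21115 had 2.51 and 1.10, AT3TE63765 -2.86 and -1.34, and AT3TE43175 -1.83 and -1.05. These 4 were singled out after their values were seen. The sources used here give no family for these identifiers.

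Within p1, the first elements by the rule for names were AT3TE91745 (2.94, in 47.8% against 16.1% of nuclei), AT5TE39795 (2.85) and AT4TE18385 (1.49) higher, and AT3TE63765, AT4TE34010 (-2.51) and AT1TE41000 (-2.38) lower. In p2, AT3TE91745 had -0.20, AT4TE18385 0.15 and AT1TE41000 0.88. Within p2, AT4TE74230 was followed by AT1TE39590 (2.98) and AT3TE18045 (2.93, 27.8% against 6.67% of nuclei), and the lower elements were AT3TE73280 (-3.54), AT2TE48420 (-3.14) and AT2TE18495 (-2.66). None of these last 5 could be compared in p1.

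Smart-seq3 nuclei did not choose the named genes and were read by the same thresholds. Among 6 deep p1 nuclei, 1 was AGO4 positive, at 335 CPM, and 5 were negative. Among 12 p2 nuclei, 2 were positive, at 282 and 612 CPM, 9 were negative and 1 lay between. In p2, the mean level of the 15 named higher genes was higher in the positive nuclei for 4, lower for 7 and 0 in both groups for 4, and for the 15 named lower genes the numbers were also 4, 7 and 4. CMT3 was at 66.9 CPM in 1 of the 2 positive p2 nuclei and at 0 in the other and in all 9 negative ones, while in p1 it was at 0 in the positive nucleus and at up to 18.7 CPM in 2 of 5 negative ones. ROS1 was at 0 in both positive p2 nuclei and at 1.42 CPM in 1 of 9 negative ones, and in p1 at 4.92 CPM in the positive nucleus against up to 75 CPM in 3 of 5 negative ones. YAB3 was at 0 in every positive nucleus and reached 867 CPM in the negative nuclei of p2. NRPE1 reached 1.34 CPM in the positive and 101 CPM in the negative p2 nuclei, and was at 428 CPM in the positive and at up to 402 CPM in the negative p1 nuclei. SUC2 was at 4.92 CPM in the positive p1 nucleus against a mean of 133 CPM in the negative ones, and at 0 against a mean of 0.861 CPM in p2. AGO10 was at 0 against a mean of 20.6 CPM in p1 and at a mean of 180 against 11.4 CPM in p2. With 3 positive nuclei in all, SUC2 had the Smart-seq2 direction by its means in p1 and p2, while ROS1 and YAB3 had the opposite one in both. In p2, however, SUC2 reached at most 3.56 CPM and ROS1 at most 1.42 CPM in any nucleus of either group. Their p2 directions therefore rest on very few counts and decide nothing. The 4.92 CPM of ROS1 and of SUC2 in the positive p1 nucleus also lies near the floor. CMT3 and AGO10 had the Smart-seq2 direction in p2 and the opposite one in p1. NRPE1 had the Smart-seq2 direction in p1 and the opposite one in p2. In Smart-seq2, AGO10 had been called in p1 alone.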

How the data were processed

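Estimated counts for each feature in each well were deposited as 1 table, in which 11.2% of the values above 0 were not whole. TAIR10 and DESeq2 are named per the submitters' processing notes, without a role, and the aligner, counting program, annotation and filters are not given in the sources used here. The table lists 29696 genes and 31189 transposable elements. Single-nucleus wells held 153 to 8102382 counts on genes. Symbols and promoters came from the RefSeq annotation of TAIR10.1, in which 28929 genes had a match.

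Counts were rounded to whole numbers. Nuclei with at least 50000 counts on genes were thinned at random to that depth (Python 3.11.15, numpy 2.4.6), transposable elements at the same rate, and summed per group. A feature was compared from 20 thinned counts over both groups and a count in at least 10% of the nuclei compared. A group at 0 entered with 3 counts, and its ratio is a bound. Intervals are exact (Poisson, binomial, Clopper-Pearson; scipy 1.17.1) at 95% and cover counting error only. Genes were named by rank of the smaller of their absolute log2 ratios in p1 and p2, 15 per direction, 3 per direction within p1 and within p2 for transposable elements, plus the members of the silencing lists. The procedure was tested on simulated counts for the recovery of large known changes. The simulated spread between nuclei was mild, so the test does not cover calls made by single nuclei with much of a gene's count. Alternatives changed the depth, thinning, rounding, filter, thresholds and scaling (TMM from edgeR 4.0.16). The members and lists were chosen with earlier results of these data known. Nuclei between the thresholds, shallow nuclei and the summing of p1 with p2 were left out.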

Additional observations from a re-analysis of the deposited data

Results flagged for a closer look

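For 5 listed genes the positive nuclei stood past 2-fold on opposite sides in p1 and in p2, and the difference between p1 and p2 was not tested. SHH1 had log2 ratios of -4.72 in p1 and 1.76 in p2. DCL4 had 1.52 in p1 and -1.17 in p2. FIL had 1.02 in p1 and -1.37 in p2. PCNA1 had -1.12 in p1 and 2.42 in p2, and HTR13 had -1.44 in p1 and 1.10 in p2. Over the settings tried, DCL4, FIL and PCNA1 also turned sign within p1, DCL4 to -1.26, FIL to -0.09 and PCNA1 to 0.31.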

How the results depend on the processing

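No paired analysis was possible because the results come from no test and the replicate numbers tie no positive nucleus to a negative one. Counts of called features moved most, and the cause was not tested beyond what each setting changes. Genes higher by fold and share in p1 and p2 (90) became 147 without the highest nucleus of each group and 230 with negative nuclei at 0 AGO4 counts. The 19 lower ones became 30 under a looser filter, which compared genes from 5 thinned counts with no minimum share of nuclei with a count. They became 36 with positive nuclei from 50 CPM and 109 in nuclei with 1500 to 4000 genes, a setting chosen after seeing the data. Genes higher by fold alone (252), lower (218) and opposite (464) became 493, 436 and 887 without thinning. They became 396, 366 and 740 at 200000 counts, and 1231, 1077 and 2285 under the looser filter. With negative nuclei at 0 AGO4 counts there were 533 higher and 716 opposite, and lower genes became 329 without the highest nucleus, 363 with positive nuclei from 50 CPM and 414 in nuclei with 1500 to 4000 genes. In every setting genes called in opposite directions were slightly fewer than those called alike, as in the 716 against 761 with negative nuclei at 0 AGO4 counts.

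Transposable elements called higher became 71 in p1 and 74 in p2 without thinning, 28 and 53 at 200000 counts, and 26 in p1 with negative nuclei at 0 counts. Those called lower became 110 and 98 without thinning, and 26 and 88 at 200000 counts. Median genes per nucleus became 6117 and 5143 in p1 positive and negative nuclei without thinning and 2725 in p2 negative nuclei, and 3660 and 2542.5 in the negative nuclei of p1 and p2 at 200000 counts.

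Of the 720 recomputed log2 ratios of the 30 named genes, 3 turned sign, all with negative nuclei at 0 AGO4 counts: SDIR1 in p2 to 0.49, AT1G16270 in p2 to 0.0367 and TTL1 in p1 to 1.71. Without the highest nucleus of each group, all 30 named genes stayed past 2-fold in their direction. These genes were chosen by fold and share in the same nuclei, and a group emptied by the removal entered with 3 counts. The outcome is therefore no independent test of them. Of the listed genes called, 13 of 28 in p1 and 13 of 23 in p2 stayed past 2-fold in all settings, and 6 and 2 turned sign. CMT3, ROS1, YAB3 and SUC2 stayed past 2-fold in p1 and p2 throughout. At this depth, genes with a count in few nuclei cannot be compared.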

Other observations

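Further genes that passed by fold and share in p1 and p2 but lay below the first 15 were looked up after their values were seen. KAI2, the karrikin receptor, had log2 ratios of 1.73 in p1 and 2.50 in p2, and SAP18, a partner of histone deacetylase complexes, had 1.81 and 1.69. The gene listed as GAMMA-H2AX, which encodes a histone variant, had 1.99 and 1.78. Of the 90 higher genes, 3 had an E2F-type motif in the 250 bases before their start (3.33%): ROS1, AT1G77620 and AT3G57570. Of the 19 lower genes, 0 had one. Among all genes compared in p1 and p2, 1.68% had one. The counts are too small to tell either group from that share, and the difference was not tested.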
